A study of Mus musculus with 18 samples.

Results

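Keratin genes encode the intermediate filament proteins of epithelial cells. The members described here are the 48 keratin genes of a mouse expression array, out of 18193 genes with a probe set of their own. They were taken from 61 probe sets whose platform annotation gave a single symbol made of Krt, a number and at most 1 letter, and where a gene had several, the one brightest on average over the 18 arrays was kept. The RNA came from B6C3F1/N mice of an inhalation study of cobalt metal aerosol, a particulate that the mice breathed for 6 hours on each of 5 days a week, over at most 105 weeks. Exposure ran from 0 to 5 mg/m3, and the mice were 5 to 6 weeks old at its start. The 3 kinds of tissue had 6 arrays each: lung tumours labelled as cobalt treated, lung tumours labelled as spontaneous, and lung of vehicle controls. The tumours were dissected away from the remaining lung before freezing. The labels leave out the concentration, sex and age at sampling for each array, and whether the spontaneous tumours came from unexposed mice. Since separate animals are not stated for the arrays of a group, the p-values reflect only how these arrays vary, and some of that variation may be technical.

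Keratin filaments are built from pairs of a type I and a type II chain, and which pair a cell makes depends on the epithelium. Krt8 with Krt18, joined by Krt7 and Krt19, marks simple epithelium such as that lining the alveoli and airways. Krt5 with Krt14 marks the basal layer of stratified epithelium and airway basal cells, Krt1 with Krt10 the upper epidermis, Krt4 with Krt13 the lining of the oesophagus, and a further set of chains is made in hair and nail. In mouse lung, Krt8 is also used as a marker of alveolar cells in a transitional state after injury. The 2 chain types lie in a cluster each, and 24 members map to chromosome 11 and 24 to chromosome 15. Krt18 is a type I chain that lies with the type II genes, next to Krt8: the annotation places 23873 bases and 2 predicted genes, Gm36026 and Gm41404, between them.

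The stretch of DNA around the annotated start is shown for the 3 keratins that were higher in both kinds of tumour and for Krt20, which was high in single tumours. Each runs from 150 bases before the start to 10 bases after it, from RefSeq on build GRCm38.p6, 5′ to 3′ on the gene's strand. Capitals mark matches on either strand to the TATA-box core TATAA, the GC box motif GGGCGG, the AP-1 motif TGANTCA or the TEAD-factor motif GGAATG.
Krt8, chr15:102004333-102004492, minus strand: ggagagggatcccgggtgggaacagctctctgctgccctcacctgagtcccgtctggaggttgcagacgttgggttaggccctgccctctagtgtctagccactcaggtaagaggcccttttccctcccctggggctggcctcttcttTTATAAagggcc
Krt18, chr15:102028066-102028225, plus strand: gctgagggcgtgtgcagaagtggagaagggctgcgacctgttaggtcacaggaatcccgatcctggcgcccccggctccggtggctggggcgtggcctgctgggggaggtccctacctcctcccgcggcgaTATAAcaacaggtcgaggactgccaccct
Krt23, chr11:99493111-99493270, minus strand: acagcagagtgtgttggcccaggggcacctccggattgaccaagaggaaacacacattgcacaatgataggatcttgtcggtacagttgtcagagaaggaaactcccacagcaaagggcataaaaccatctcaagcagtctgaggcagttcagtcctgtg
Krt20, chr11:99438144-99438303, minus strand: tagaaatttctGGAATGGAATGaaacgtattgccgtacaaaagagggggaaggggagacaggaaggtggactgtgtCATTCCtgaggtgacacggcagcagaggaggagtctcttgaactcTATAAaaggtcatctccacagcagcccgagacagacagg
The Krt20 window held TATAA 29 bases before the start, and GGAATG beginning 139 and 134 bases before it in 2 overlapping copies and once more on the other strand 74 bases before it. Krt18 held TATAA 19 bases before its start, in Krt8 that match spanned the start itself, and Krt23 held none of the 4 motifs. TATAA was in 20 of the 33 windows of the 32 members that the RefSeq table lists, and in 14.8% of all 32851 windows. GGGCGG was in 2 of the 33 keratin windows against 29.5% of all, TGANTCA in 1 against 4.53%, and GGAATG in 3 against 8.15%. The motifs were chosen with the sequences in view. A first search, of TATAAA in the 250 bases before the start, found it in 16 of 33 keratin windows and 12.4% of all, and the shorter motif and the window printed here were taken after that result was seen. A match is a run of letters, and binding was not measured.

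All values are log2 RMA expression, where 1 unit is a factor of 2, and a level is not set against that of another gene because probe sets differ in brightness. Precision is set by the number of arrays. Array values lay between 3.34 and 15.26, and 27 of the 48 members were among the dimmest 6064 genes. No detection calls were used, so it is not known which of these dim probe sets read more than background. The lung marker Sftpc, a surfactant protein of alveolar type 2 cells, read 14.28 to 15.26 in every array. Some arrays need care in what follows. Spontaneous tumours 2 and 6 had scores of 62.13 and 53.53 on the second principal component, away from every other array. Cobalt tumour 6 lay between tumours and controls on the first, at -24.48, against 17.01 to 60.59 for the other tumours and -67.68 to -63.72 for controls. The female-specific RNA Xist was above 10 in all 6 controls but in only 4 cobalt and 2 spontaneous tumours. For control 6 the free-text description names a tumour, while its title, source and group name a vehicle control. It was kept as a control, and its score on the first component was -67.68, at the control end.

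The simple-epithelium pair Krt8 and Krt18 was higher in both kinds of tumour. Krt8 ran from 12.14 to 13.54 with a median of 12.80 in cobalt tumours and from 12.02 to 14.06 with a median of 12.55 in spontaneous tumours, against 11.23 to 11.56 with a median of 11.29 in control lung. All 12 tumours lay above all 6 controls. The mean was 12.84 ± 0.60 in cobalt tumours, 12.85 ± 0.90 in spontaneous tumours and 11.33 ± 0.12 in control lung (SD, n = 6 each), so the spread was wider among tumours. By limma's moderated test with Benjamini-Hochberg adjustment over all genes, Krt8 was 2.84-fold higher in cobalt tumours (log2 difference 1.51, 95% interval 0.79 to 2.22, adjusted p = 0.00209) and 2.86-fold higher in spontaneous tumours (log2 difference 1.52, 0.80 to 2.23, adjusted p = 0.00202). The 2 further Krt8 probe sets gave the same order of arrays by group, with every tumour above every control.

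Krt18, the type I partner of Krt8, showed the larger difference of the 2 on this scale. It ran from 11.80 to 13.69 with a median of 12.95 in cobalt tumours and from 11.57 to 13.86 with a median of 12.46 in spontaneous tumours, against 10.25 to 10.51 with a median of 10.30 in control lung. Again no tumour overlapped a control. The log2 difference from control lung was 2.56 in cobalt tumours (interval 1.78 to 3.33, adjusted p = 4.48e-05, 5.89-fold) and 2.40 in spontaneous tumours (1.63 to 3.18, adjusted p = 7.72e-05, 5.29-fold). Left without spontaneous tumours 2 and 6, spontaneous tumours differed from control lung by 0.97 in Krt8 (adjusted p = 0.00684) and 1.85 in Krt18 (adjusted p = 0.000238), in an alternative added after the data were seen. In these bulk samples, more or fewer cells of a type and more or less RNA per cell cannot be told apart.

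**Figure D1:**
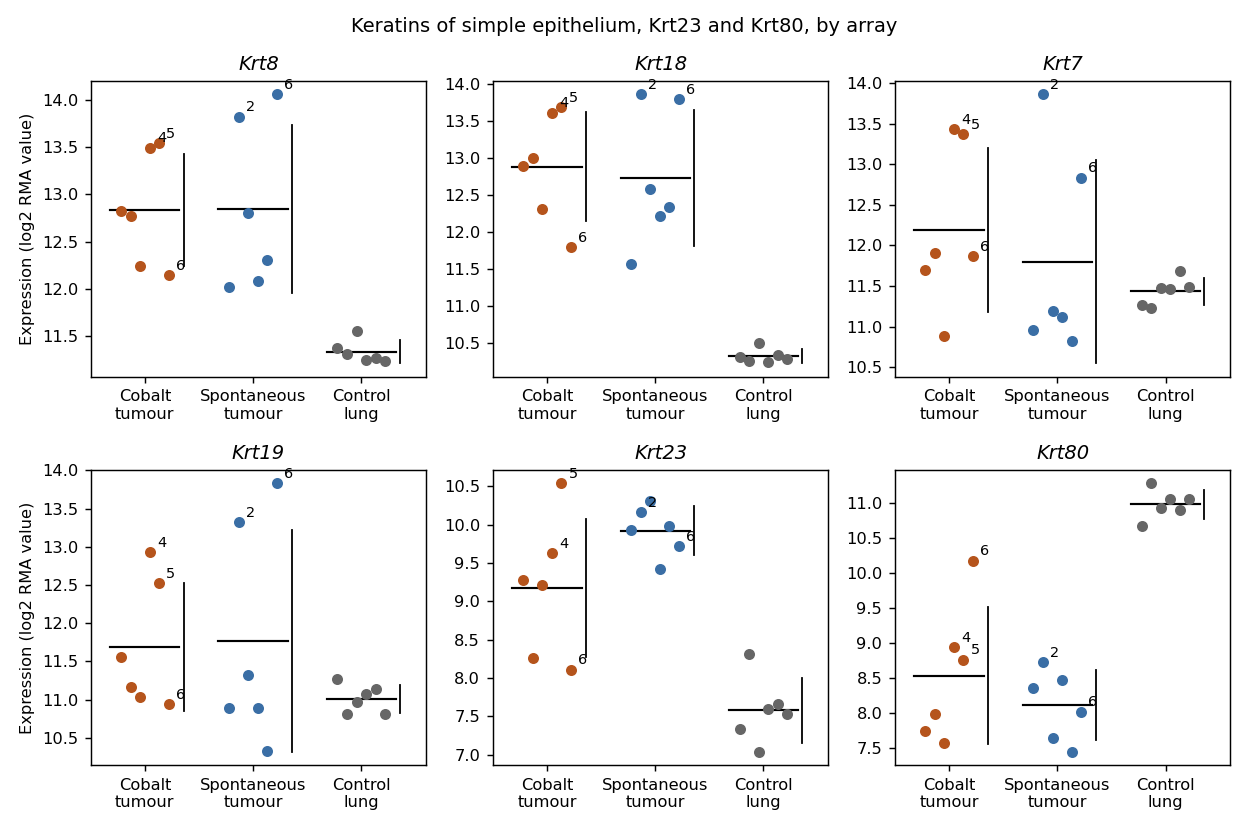
Log2 RMA expression of Krt8, Krt18, Krt7, Krt19, Krt23 and Krt80 in each array, with cobalt tumours, spontaneous tumours and control lung from left to right, the group mean as a horizontal line and the SD as a vertical line (n = 6 each). Krt8 and Krt18 of all 12 tumours lie above all controls and Krt80 of all tumours lies below, while Krt7 and Krt19 are high only in the numbered cobalt tumours 4 and 5 and spontaneous tumours 2 and 6.

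Krt7 and Krt19, the other chains of simple and ductal epithelium, did not pass the test in either kind of tumour. Krt7 ran from 10.88 to 13.43 with a median of 11.89 in cobalt tumours and from 10.82 to 13.86 with a median of 11.15 in spontaneous tumours, against 11.23 to 11.69 in control lung. Most of that range came from 4 tumours: 13.43 and 13.37 in cobalt tumours 4 and 5 and 13.86 and 12.84 in spontaneous tumours 2 and 6. The other 8 tumours reached at most 11.90, and 5 of them lay below all controls. The log2 difference was 0.76 in cobalt tumours (interval -0.30 to 1.82, adjusted p = 0.271) and 0.36 in spontaneous tumours (-0.69 to 1.42, adjusted p = 0.609), and the difference in spontaneous tumours was -0.41 without tumours 2 and 6.

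Krt19, the chain that lacks most of the tail domain, had the same 4 tumours on top. They read 12.93 and 12.52 in cobalt tumours 4 and 5 and 13.33 and 13.83 in spontaneous tumours 2 and 6, against at most 11.55 in the other 8 tumours and 10.81 to 11.27 in control lung. The log2 difference was 0.68 in cobalt tumours (interval -0.43 to 1.78, adjusted p = 0.352) and 0.75 in spontaneous tumours (-0.35 to 1.86, adjusted p = 0.288), and -0.15 in the spontaneous tumours without the 2 that stood apart. Those 4 tumours led in Krt8 too, at 13.50 or more against at most 12.82, and in Krt18, at 13.62 or more against at most 13.01.

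Whether partner chains followed each other from tumour to tumour was examined for 10 partner pairs. Because 4 tumours formed a cluster of their own in Krt7 and Krt19, no correlation over all 12 is given, and it was computed within the other 8. Krt8 and Krt18 followed each other there (Pearson r = 0.887, exact permutation p = 0.00208, adjusted over the 10 pairs 0.0208; Spearman rho = 0.905, exact p = 0.00456, adjusted 0.0228; n = 8), and r was 0.906 without the 2 tumours farthest from the Krt8 median. The 4 tumours left out were also the highest in Krt8 and Krt18. Krt8 with Krt19, Krt7 with Krt18 and Krt7 with Krt19 could not be tested in this way, because the 4 were set apart by Krt7 and Krt19. Krt5 and Krt15, both of basal cells, passed with r = 0.919 (exact p = 0.00466, adjusted 0.0233, n = 8), over values that spanned little: Krt15 lay between 4.39 and 5.19 in all 18 arrays. Of the 8 tumours, spontaneous tumour 5 was the highest and spontaneous tumour 4 the lowest in both genes. Spontaneous tumour 5 was also the highest of all arrays in other keratins, such as Krt1 and Krt25. After cyclic loess normalization Krt5 with Krt15 did not pass (r = 0.879, exact permutation p adjusted over the 10 pairs 0.101). Whether an array-wide shift lies behind this pair was not tested. The other 5 pairs did not pass.

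**Figure D2:**
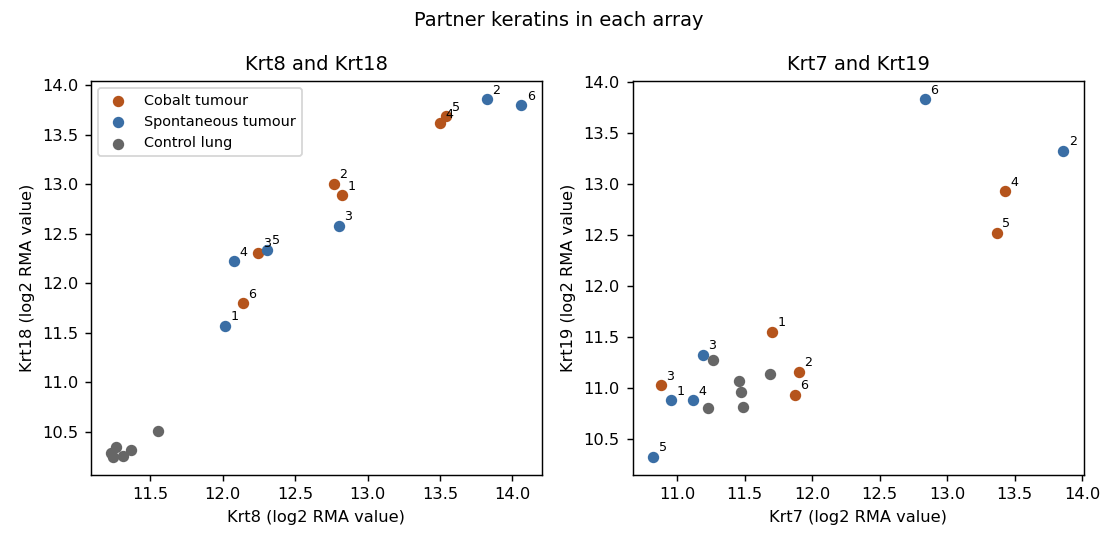
Log2 RMA expression of Krt18 against Krt8 (left) and of Krt19 against Krt7 (right), 1 point per array, with tumours numbered by replicate. Krt8 and Krt18 increase together through the tumours with all controls at the low end, while in Krt7 and Krt19 cobalt tumours 4 and 5 and spontaneous tumours 2 and 6 lie apart from all other arrays.

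Krt23, a type I chain described as inducible in human cancer cells, was higher in both kinds of tumour. It ran from 8.11 to 10.54 with a median of 9.24 in cobalt tumours and from 9.43 to 10.31 with a median of 9.96 in spontaneous tumours, against 7.04 to 8.31 with a median of 7.56 in control lung. All 6 spontaneous tumours and 4 of 6 cobalt tumours lay above every control, and cobalt tumours 2 and 6 fell just below the highest control. The log2 difference was 1.59 in cobalt tumours (interval 0.90 to 2.28, adjusted p = 0.00103, 3.01-fold) and 2.35 in spontaneous tumours (1.66 to 3.03, adjusted p = 3.31e-05, 5.08-fold). Spontaneous tumours 2 and 6 did not stand out here.

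Krt80, a type II chain found in human epithelia near the desmosomes, was lower in both kinds of tumour. It ran from 7.57 to 10.17 with a median of 8.38 in cobalt tumours and from 7.45 to 8.73 with a median of 8.19 in spontaneous tumours, against 10.66 to 11.28 with a median of 10.99 in control lung. No tumour overlapped a control, and the tumour nearest to the controls was cobalt tumour 6, at 10.17. Krt80 was 5.45-fold lower in cobalt tumours (log2 difference -2.45, interval -3.18 to -1.71, adjusted p = 4.09e-05) and 7.29-fold lower in spontaneous tumours (-2.87, -3.60 to -2.13, adjusted p = 8.93e-06). Without cobalt tumour 6 the difference in cobalt tumours was -2.78.

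Counted over the family, 4 of 48 keratins were called in cobalt tumours against control lung at an adjusted p under 0.05 (8.33%), where 34.0% of all genes were called in that comparison. The 3 higher were Krt8, Krt18 and Krt23, where 14.7% of all genes were higher, and the 1 lower was Krt80, where 19.3% of all genes were lower. In spontaneous tumours 6 of 48 were called (12.5%), where 34.6% of all genes were called. The 3 higher were again Krt8, Krt18 and Krt23 (16.4% of all genes), and the 3 lower were Krt80, Krt83 and Krt86 (18.2% of all genes). Both comparisons use the same 6 control arrays. The share of keratins called was below that of all genes in each, and most keratins were dim.

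Keratins whose groups did not overlap at all were 3 of 48 in cobalt tumours, where 18.9% of all genes did not overlap. Krt8 and Krt18 were above every control (8.1% of all genes) and Krt80 below (10.8%). They were 5 of 48 in spontaneous tumours, where 21.1% of all genes did not overlap. Krt8, Krt10, Krt18 and Krt23 were above every control (9.21% of all genes) and Krt80 below (11.9%). The median log2 difference over the 48 keratins was 0.02 in cobalt tumours, beside -0.03 over all genes, and -0.01 in spontaneous tumours, also beside -0.03. In each of these comparisons 40 of 48 keratins differed by less than 0.5 on the log2 scale. That count was not made over all genes, so it does not show that keratins differed less than other genes. With only the arrays whose Xist was above 10, 4 keratins were called in cobalt tumours, where 27.8% of all genes were called in that fit, and 5 in spontaneous tumours, where 23.7% were. Krt8 then differed from control lung by 1.34 in cobalt tumours and 1.74 in spontaneous tumours. Krt18 differed by 2.37 in cobalt tumours and 2.68 in spontaneous tumours. The spontaneous side of that fit held only tumours 4 and 6, and tumour 6 had the highest Krt8 of all arrays.

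**Figure D3:**
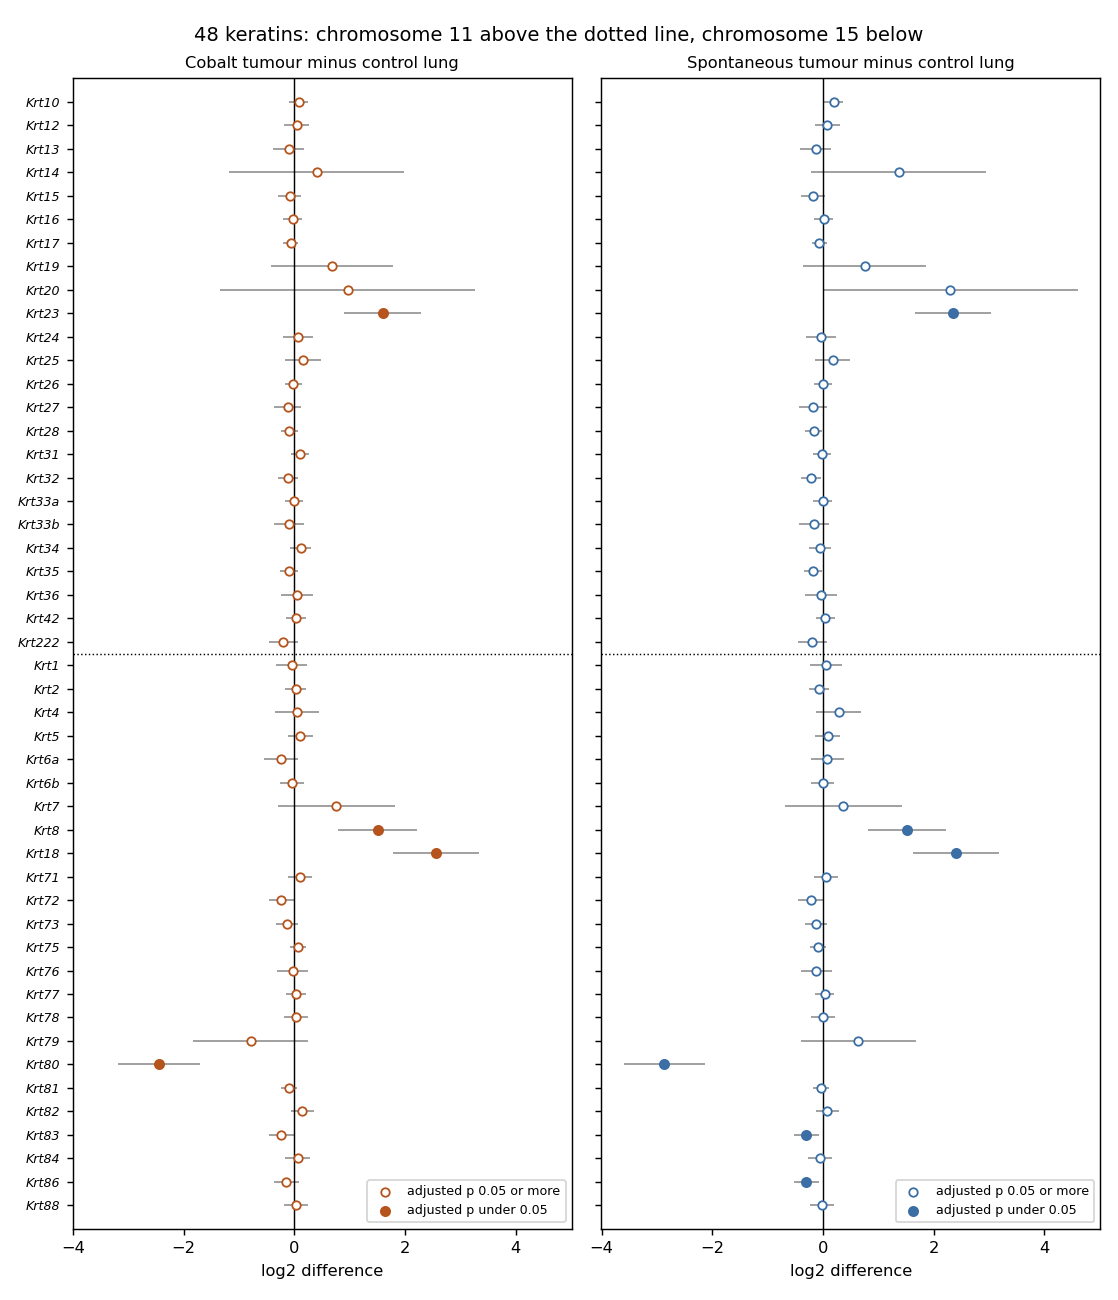
Log2 difference of each of the 48 keratins from control lung in cobalt tumours (left) and spontaneous tumours (right), with 95% intervals as horizontal lines and filled points for an adjusted p under 0.05. Krt8, Krt18 and Krt23 lie to the right and Krt80 to the left in both panels, and most others lie near 0, with wide intervals for Krt14, Krt20, Krt7, Krt19 and Krt79.

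Cobalt tumours were then set against spontaneous tumours directly, which also tests whether the 2 kinds of tumour differ in their change from control lung. No keratin was called at an adjusted p under 0.05 by limma (0 of 48, where 0.0824% of all genes were called, 0.044% higher and 0.0385% lower), nor by the exact permutation test. Nor did any keratin have tumour groups that did not overlap, where 0.616% of all genes did, 0.192% higher and 0.423% lower in cobalt tumours. At an unadjusted p under 0.05 there were 4 of 48, beside 11.6% of all genes. Krt8 differed by -0.01 (interval -0.72 to 0.70, adjusted p = 0.995) and Krt18 by 0.16 (-0.62 to 0.93, adjusted p = 0.914), so differences of up to about these bounds are not excluded. Krt23 differed by -0.75 (-1.44 to -0.06, adjusted p = 0.377) and Krt80 by 0.42 (-0.31 to 1.15, adjusted p = 0.701), or 0.09 without cobalt tumour 6.

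Krt79, a type II chain of the upper hair follicle in mouse skin, had the largest difference between tumour kinds among the keratins at an unadjusted p under 0.05. Cobalt tumours 1 to 6 read 7.44, 8.68, 8.86, 7.04, 9.31 and 7.39. Spontaneous tumours 1 to 6 read 11.34, 10.29, 9.85, 9.49, 8.34 and 7.99, and control lung 8.36 to 9.23. In 4 spontaneous tumours it lay above every cobalt tumour and every control, and in 2 below every control. The log2 difference between cobalt and spontaneous tumours was -1.43 (interval -2.47 to -0.39, adjusted p = 0.262), which did not pass, and it was -0.18 among arrays with Xist above 10. From control lung Krt79 differed by -0.79 in cobalt tumours (adjusted p = 0.240) and 0.64 in spontaneous tumours (adjusted p = 0.344). The value in spontaneous tumours was 0.28 without tumour 1 and 0.95 without tumour 6. Among arrays with Xist above 10, Krt79 differed from control lung by -0.35 in cobalt tumours and -0.17 in spontaneous tumours. Only spontaneous tumours 4 and 6, at 9.49 and 7.99, enter these values on the spontaneous side.

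Some keratins were high in 1 to 4 tumours and much lower in the rest. Krt20, a type I chain of the intestinal lining, the urothelial surface and Merkel cells, was the clearest of these. It is one of 3 keratins, with Krt4 and Krt6a, that are described because of their values. Cobalt tumour 5 read 8.59, and the other cobalt tumours read 4.89 to 5.39. Spontaneous tumours 2 and 6 read 11.16 and 11.26, the other 4 read 4.76 to 5.09, and control lung read 4.55 to 5.04. Above every control lay 5 of 6 cobalt tumours and 4 of 6 spontaneous tumours, most by a small margin. The log2 difference was 0.96 in cobalt tumours (interval -1.34 to 3.27, adjusted p = 0.543), 2.30 in spontaneous tumours (0.00 to 4.60, adjusted p = 0.114), and 0.23 in spontaneous tumours without the 2 high ones. Without cobalt tumour 5 it was 0.39 in cobalt tumours. The exact permutation test called Krt20 in cobalt tumours (adjusted p = 0.0183) and not in spontaneous tumours (adjusted p = 0.0590).

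Krt14, the type I chain of basal cells, was high in the same spontaneous tumours. It read 6.23 and 5.87 in cobalt tumours 4 and 5 and 4.76 to 5.21 in the other cobalt tumours. It read 7.90 and 10.49 in spontaneous tumours 2 and 6 and 4.85 to 5.04 in the other spontaneous tumours, against 4.83 to 5.18 in control lung. The log2 difference was 0.40 in cobalt tumours (adjusted p = 0.730) and 1.37 in spontaneous tumours (interval -0.22 to 2.95, adjusted p = 0.175). It was -0.06 in spontaneous tumours without those 2. A second Krt14 probe set gave 7.56 and 9.40 in spontaneous tumours 2 and 6, and the last of the 3, at 4.32 to 5.00 over all arrays, did not show these high values.

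Krt5, the basal-cell partner of Krt14, did not follow it. It read 6.46 to 6.76 in cobalt tumours, 6.33 to 7.06 in spontaneous tumours and 6.35 to 6.74 in control lung, and spontaneous tumours 2 and 6 read 6.41 and 6.63. Trp63, the transcription factor that defines basal cells, read 5.07 to 5.45 in cobalt tumours, 5.06 to 5.53 in spontaneous tumours and 5.28 to 6.17 in control lung. Of 8 airway basal markers, 1 was higher and 2 lower in cobalt tumours (37.5% called, beside 34.0% of all genes). In spontaneous tumours 0 were higher and 3 lower, Trp63 among them (37.5%, beside 34.6%). These shares were near those of all genes, and they are counted over whole groups. By array, the mean level of these markers was 7.375 and 7.012 in spontaneous tumours 2 and 6. It was 6.746 to 6.904 in the other spontaneous tumours and 6.941 to 7.383 in control lung. In both tumours 2 and 6, Itga6 and Aqp3 lay above every control, while Trp63, Snai2 and Col17a1 lay below every control.

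**Figure D4:**
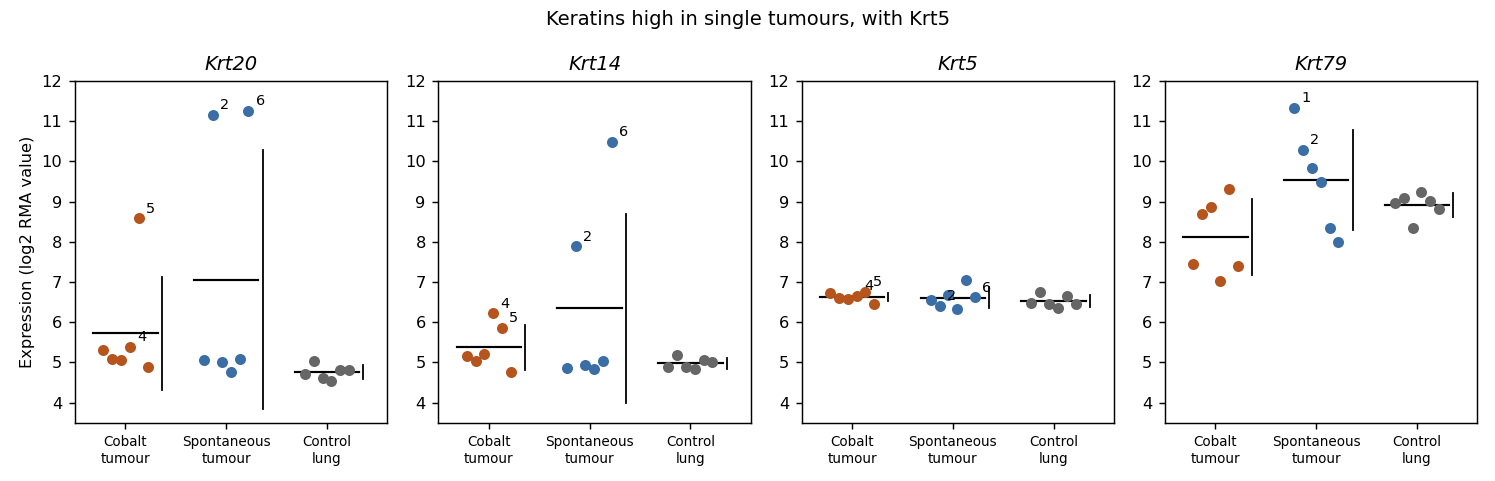
Log2 RMA expression of Krt20, Krt14, Krt5 and Krt79 in each array on 1 common axis, cobalt tumours, spontaneous tumours and control lung from left to right, with group means as horizontal lines and SD as vertical lines (n = 6 each). Krt20 and Krt14 are high in spontaneous tumours 2 and 6 and much lower in most other tumours, Krt5 is flat, and Krt79 is spread over both tumour groups.

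Krt6a, a type II chain made in healing skin, had smaller peaks in spontaneous tumours 2 and 6, and Krt4, of oesophageal lining, had one in spontaneous tumour 6 only. Krt6a read 7.32 and 7.70 in spontaneous tumours 2 and 6, 6.56 to 6.91 in cobalt tumours and 6.85 to 7.03 in control lung. In 5 of 6 cobalt tumours it lay below every control. The log2 difference in cobalt tumours was -0.25 (limma adjusted p = 0.208), which did not pass, although the exact permutation test called it (adjusted p = 0.0243), as did limma with spontaneous tumours 2 and 6 left out (adjusted p = 0.0169). A second Krt6a probe set gave 7.78 and 7.62 in those tumours against at most 6.14 in all other arrays. The last of the 3 read 4.55 and 4.62 there and up to 4.63 in control lung, so the probe sets disagree on the size and on whether there is a peak. In cobalt tumours the second probe set differed from control lung by 0.07 (limma over all probe sets, adjusted p = 0.902). The last differed by -0.21 (adjusted p = 0.0660), so the direction in cobalt tumours also depends on the probe set. Krt4 read 7.11 in spontaneous tumour 6 and 5.38 to 6.01 in all other arrays. Spontaneous tumours 2 and 6 were the 2 highest arrays for 7 of 48 keratins, Krt6a, Krt8, Krt10, Krt14, Krt18, Krt19 and Krt20, which is 14.6% beside 5.0% of all genes. Krt10 counts here by a very small margin, at 7.686 in spontaneous tumour 6 and 7.685 in cobalt tumour 2. These 2 tumours were singled out after the data were seen.

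The remaining keratins named here varied little. Krt10, of upper epidermis, read 7.35 to 7.69 in cobalt tumours, 7.63 to 7.74 in spontaneous tumours and 7.09 to 7.63 in control lung, and the lowest spontaneous tumour (7.630) and the highest control (7.627) nearly met. The hair chains Krt83 and Krt86 were each lower in spontaneous tumours, with a log2 difference of -0.30 (adjusted p = 0.0376). They differed by -0.24 (adjusted p = 0.0916) and -0.14 (adjusted p = 0.334) in cobalt tumours. Krt83 lost its call without control 1, 2 or 5 or spontaneous tumour 1, 2, 4 or 6 (log2 difference -0.30 to -0.23), and Krt86 without control 1, 3 or 4 or spontaneous tumour 1, 4 or 6 (-0.31 to -0.23). The hair chain Krt81 read 7.98 to 8.34 and the nail chain Krt42 9.02 to 9.51 over all 18 arrays, and neither was called. A second Krt42 probe set read 5.10 to 5.66.

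The other 31 keratins, most of them of skin and hair, had array values between 3.72 and 7.58. Their range over the 18 arrays was 0.39 to 1.09, with a median of 0.65. Over all 48, 9 keratins ranged by more than 2 log2 units and 8 by more than 3, namely Krt7, Krt14, Krt18, Krt19, Krt20, Krt23, Krt79 and Krt80. Of all genes, 18.7% ranged by more than 2 and 8.38% by more than 3.

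Genes that work with keratins were described from lists of related genes. General epithelial genes were mostly higher in both kinds of tumour, as were Krt8 and Krt18. Of 18, 16 were higher and 1 lower in both cobalt and spontaneous tumours (94.4%, beside 34.0% of all genes in cobalt and 34.6% in spontaneous tumours). The median log2 difference was 1.14 in cobalt and 1.09 in spontaneous tumours. The adhesion molecule Epcam was 2.34 higher on the log2 scale in cobalt tumours and 2.22 higher in spontaneous tumours, and the junction protein Cldn4 was 2.69 higher in cobalt tumours and 2.03 higher in spontaneous tumours. The mean level of this list was 9.65 to 10.48 in cobalt tumours, 9.85 to 10.47 in spontaneous tumours and 8.97 to 9.11 in control lung. Tumour by tumour the list did not always follow Krt8. Spontaneous tumour 6, the highest in Krt8, read only 9.88, while spontaneous tumour 2 and cobalt tumour 4, also high in Krt8, read 10.47 and 10.48. The part of this list in the keratin results was not tested.

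Desmosomes and plakins anchor keratin filaments at the cell border. Of 20, 5 were higher and 3 lower in cobalt tumours (40.0%, beside 34.0% of all genes) and 4 higher and 3 lower in spontaneous tumours (35.0%, beside 34.6%), shares near those of all genes, with a median log2 difference of 0.23 in cobalt and 0.26 in spontaneous tumours. On the same list, Lad1, an anchoring-filament protein of the basement membrane zone, was 2.57 higher in cobalt tumours (adjusted p = 0.000234) and 3.18 higher in spontaneous tumours (adjusted p = 3.31e-05). The plakin Dst was lower, with differences of -2.38 in cobalt tumours and -1.94 in spontaneous tumours. Other intermediate filament genes, of muscle, mesenchyme, neurons, lens and the nuclear lamina, had 0 of 18 higher, 4 lower in cobalt tumours (22.2% called, beside 34.0% of all genes) and 5 lower in spontaneous tumours (27.8%, beside 34.6%). Vim, the mesenchymal filament, was lower in cobalt tumours, at -1.41 (adjusted p = 0.000365), and differed by -0.57 in spontaneous tumours (adjusted p = 0.0943).

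Genes of the cornified envelope, the shell of upper skin cells, were called about as often as all genes, with 5 of 20 higher and 2 lower in cobalt tumours (35.0%, beside 34.0%) and 3 higher and 3 lower in spontaneous tumours (30.0%, beside 34.6%). The envelope precursor Ivl was 3.07 higher on the log2 scale in cobalt tumours and 3.24 higher in spontaneous tumours. The calcium-binding protein Calml3 was lower, with differences of -2.47 in cobalt tumours and -2.76 in spontaneous tumours. Of 19 epithelial transcription factors 4 were higher and 3 lower in each kind of tumour (36.8%, again near the 34.0% of all genes in cobalt and 34.6% in spontaneous tumours). Ehf was higher by 1.88 in cobalt and 2.49 in spontaneous tumours, and Klf4 was lower, at -1.17 in cobalt and -1.76 in spontaneous tumours. No gene of any of the 14 lists was called between cobalt and spontaneous tumours.

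Injury-associated epithelial genes, which include markers used for the transitional Krt8-high alveolar state in mouse lung, had 6 of 20 higher and 2 lower in cobalt tumours (40.0%, beside 34.0% of all genes) and 6 higher and 0 lower in spontaneous tumours (30.0%, beside 34.6%), so neither share was far from that of all genes. The list's mean level was 12.02 and 11.64 in spontaneous tumours 2 and 6 and 10.99 and 11.08 in cobalt tumours 4 and 5. It was 9.96 to 10.41 in the other tumours and 9.79 to 10.11 in control lung. The squamous and injury gene Sprr1a read 10.02 and 10.29 in spontaneous tumours 2 and 6 and was next highest in cobalt tumour 5. These are the 3 tumours with the highest Krt20.

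**Figure D5:**
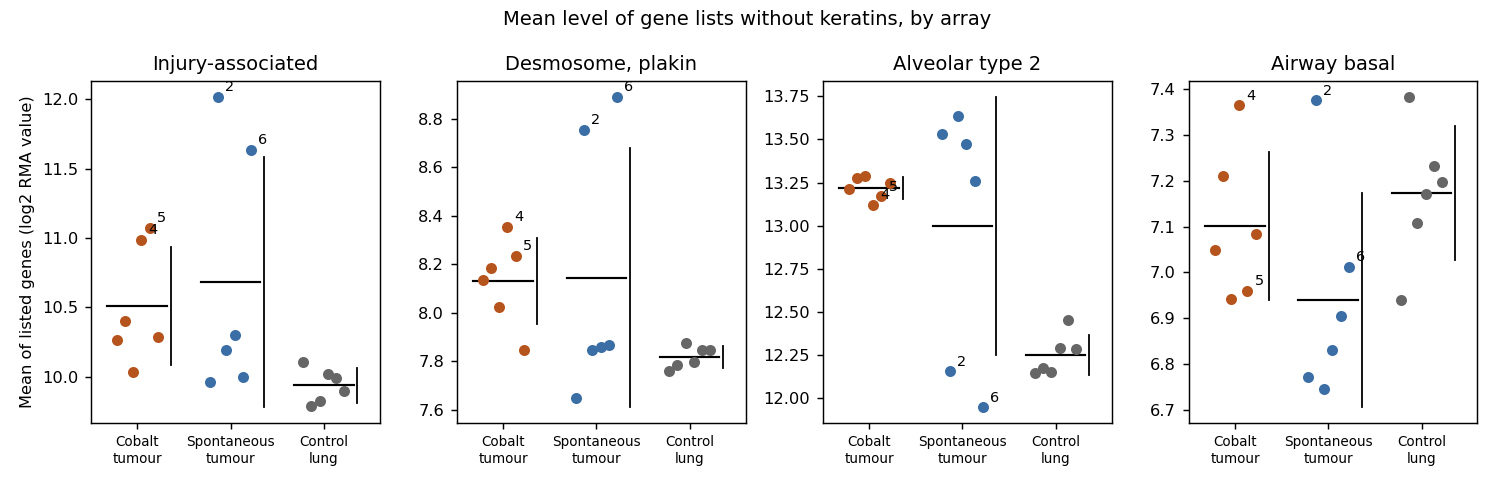
Mean log2 RMA level of the measured members of 4 gene lists without keratins in each array, cobalt tumours, spontaneous tumours and control lung from left to right, with group means as horizontal lines and SD as vertical lines (n = 6 each). Spontaneous tumours 2 and 6 are the highest for the injury-associated and desmosome lists and the lowest tumours for alveolar type 2 markers.

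Markers of lung cell types moved too. Alveolar type 2 markers had 10 of 14 higher in cobalt tumours (71.4%, beside 14.7% of all genes). In spontaneous tumours 7 of 14 were higher (50.0%, beside 16.4%). Their mean level was 13.12 to 13.29 in cobalt tumours, 12.16 and 11.95 in spontaneous tumours 2 and 6, 13.26 to 13.64 in the other spontaneous tumours, and 12.15 to 12.45 in control lung. Alveolar type 1 markers had 9 of 12 lower in each kind of tumour, ciliated markers 12 of 12, endothelial markers 10 of 10 and mesothelial markers 8 of 11. Of all genes, 19.3% were lower in cobalt tumours and 18.2% in spontaneous tumours. Mesothelial and airway cells also make keratins, and the mean level of mesothelial markers was 5.33 to 6.41 in cobalt tumours, 5.35 to 6.297 in spontaneous tumours and 6.34 to 7.99 in control lung. The member Msln did not follow that mean in spontaneous tumours 2 and 6 and cobalt tumour 4, at 10.96, 12.74 and 9.53. It read 5.60 to 8.02 in the other tumours and 6.23 to 8.26 in control lung. Club-cell markers had 10 of 12 lower and 2 higher in cobalt tumours (100% called, beside 34.0% of all genes). In spontaneous tumours 7 were lower and 2 higher (75.0%, beside 34.6%). The 2 higher in each were the secreted proteins Scgb3a1, at 2.85 in cobalt and 2.84 in spontaneous tumours, and Bpifa1, at 4.59 in cobalt and 6.09 in spontaneous tumours. The part of these cell types in the keratin results was not tested.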

How the data were processed

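RNA of 18 mouse lung and lung tumour samples was measured on an Affymetrix 3′ expression array, 1 array per sample. The values are log2 expression as the authors deposited it, and RMA is the tool that the submitters' processing notes name. No version or setting of it is given. RMA makes the arrays' distributions alike, here with medians of 6.32 to 6.45, and dim and bright probe sets can show compressed differences. Of 45101 probe sets, 34945 have 1 symbol in the platform annotation, 932 several and 9160 none, and 64 are controls. The probe set with the highest mean stood for each of 18193 genes. The probe set that lists both Krt17 and Krt14 was left out.

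Groups came from titles, sources and group labels. limma 3.58.1 in R 4.3.3 (lmFit, eBayes) was fitted over all 18 arrays and 3 groups, two-sided, with Benjamini-Hochberg adjustment over all genes and a threshold of 0.05. Correlations used Python 3.11.15 with exact two-sided permutation, within 8 tumours in place of the 12 first planned, since 4 stood apart; over the 12, 5 of 10 pairs had an adjusted p under 0.05. The fit was tested on simulated data. Named keratins were those called in a comparison, those whose mean was above the median gene's mean, and Krt5, Krt7, Krt8, Krt14, Krt18 and Krt19. From each gene list up to 3 called members per direction could be named, beside a few fixed markers. The members and lists were chosen with earlier results of these data known. Of 214 list entries, 11 had no matching gene. Alternatives covered normalization, the dimmest genes, probe set choice, eBayes options, array weights, blocks, Xist and left-out arrays. Samples that share a replicate number did not deviate together, so the fit has no block.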

Additional observations from a re-analysis of the deposited data

Results flagged for a closer look

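Among the 17 keratins described by name, each of the 3 groups of 6 arrays was examined for a single array far from the others by Dixon's test, 51 groups in all, and 3 were found, where chance alone marks about 1 group in 20. Krt20 in cobalt tumour 5 was 8.59, against 4.89 to 5.39 in the other cobalt tumours. Krt4 in spontaneous tumour 6 was 7.11, against 5.38 to 6.01 in the other spontaneous tumours. Krt10 in control 1 was 7.09, against 7.47 to 7.63 in the other controls. Krt20 and Krt4 had been picked for description because of such values.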

How the results depend on the processing

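Krt8, Krt18, Krt23 and Krt80 were called in both tumour comparisons under every alternative run. The number of keratins called in spontaneous tumours against control lung was 6, and 4 to 8 over the alternatives. Without 1 replicate at a time it was 4 to 8. Over the alternatives run on all 18193 genes, 2017 to 3487 genes were higher and 2288 to 3819 lower in that comparison. In cobalt tumours the number of keratins called was 4, and 4 to 6 over the alternatives, with 6 under the exact permutation test, which added Krt20 and Krt6a. That test called 2820 of 18193 genes higher and 3591 lower. Without 1 replicate 4 to 5 keratins were called. The alternatives run on all 18193 genes called 2215 to 3512 genes higher and 2835 to 4155 lower in cobalt tumours. Between cobalt and spontaneous tumours 0 keratins were called in every fit, and at most 36 genes were called higher and 46 lower. With the replicate number as a block, the number of keratins called was 4 in spontaneous tumours, 4 in cobalt tumours and 0 between the tumour kinds, where Krt83 and Krt86 lost their calls in spontaneous tumours. In that fit 2736 genes were higher and 3062 lower in spontaneous tumours, and 2476 higher and 3308 lower in cobalt tumours. The titles give the replicate numbers without saying what they stand for. In their deviations from the group mean, samples sharing a number correlated by -0.046 to 0.047 between spontaneous tumours and controls. The values were -0.115 to 0.101 between cobalt tumours and controls and -0.338 to 0.195 between tumour kinds. Of the partner pairs, 2 passed within 8 tumours, and 1 passed under cyclic loess normalization and 1 without cobalt tumour 6, where Krt5 with Krt15 was lost and the cause was not tested. For single keratins, 1532 of 1569 alternative values kept their side of the threshold and moved little, 26 lost a call, all of them Krt83 or Krt86, 6 gained a call and 5 moved, with no called value reversed. The absence of detection calls limits what can be said of dim keratins.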
